A study of Mus musculus with 8 samples.

Results

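The JAK2V617F effect in LSK cells was read from 4 of the 8 arrays of the series, the ones made from LSK cells. LSK cells are the Lineage-negative, Sca-1-positive, c-Kit-positive fraction of mouse bone marrow, which holds the haematopoietic stem cells and the earliest multipotent progenitors. The arrays form 2 matched pairs by genotype. JAK2V617F over wild type (WT) is called the Ezh2-intact pair, and JAK2V617F/Ezh2Δ/Δ (the double mutant) over Ezh2Δ/Δ the Ezh2-deleted pair. The marrow donors were JAK2V617F;Cre-ERT2, Cre-ERT2 (labelled WT), JAK2V617F;Ezh2flox/flox;Cre-ERT2 and Ezh2flox/flox;Cre-ERT2 mice, all C57BL/6 by label, so all groups carried Cre-ERT2. Marrow went into CD45.1+ wild-type recipients after lethal irradiation, Ezh2 was deleted 4 weeks later, and cells were sorted 2 months after transplantation. Irradiated recipients can keep some blood cells of their own, and the labels do not say whether donor cells were gated. They also do not give the promoter that drives JAK2V617F, the number of mice behind a sample or the age of the mice.

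JAK2 is the tyrosine kinase that sits on the receptors for erythropoietin and several other cytokines and passes their signal to STAT transcription factors, STAT5 above all. The V617F change makes the kinase active without a cytokine, and it is the most common driver of the human myeloproliferative neoplasms, in which stem and progenitor cells overproduce red cells, platelets or granulocytes. Ezh2 is the enzyme of the PRC2 complex that silences genes through histone H3 methylation, so the pairs set the JAK2V617F effect in cells with intact Ezh2 beside that in cells labelled as Ezh2-deleted.

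Each group had 1 array, made from 20 ng of total RNA. A level below is the log2 ratio of a gene's brightest probe to the 75th percentile of signals on its array, and "above background" refers to the scanner software's flag. Between 43.3% and 48.8% of the 55681 probes were above background on an LSK array, with the lower values on the JAK2V617F and double mutant arrays (43.3% and 46.0%), against 48.0% for WT and 48.8% for Ezh2Δ/Δ. The 4 arrays correlated at 0.959 to 0.981 over the genes tested. The 7410 genes above background on no LSK array read higher by a median of 0.63 log2 in the Ezh2-intact pair and 0.45 in the Ezh2-deleted pair, so the fold of a dim gene is given as a bound ("at least N-fold") set by the lowest signal above background on the dim array. A bound holds for this processing only. With another background correction (normexp, below), some dim genes differed by less than their bound. Counts of genes past 2-fold and fitted log2 differences use the measured signals, background readings included, and are no bounds. The median of the 12859 genes tested was 0.09 and 0.08 log2, and quantile normalization put it at -0.03 and -0.00. Y-linked Ddx3y read 1.42 in JAK2V617F and 1.34 in WT and was not above background in the double mutant or Ezh2Δ/Δ, whereas Xist, which is made from the inactive X of females, read 1.57 in the double mutant and 2.07 in Ezh2Δ/Δ against -5.29 in JAK2V617F and -3.06 in WT. The JAK2V617F contrast was therefore made within 1 sex in each pair, but sex and Ezh2 status cannot be told apart between the pairs.

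The sorted fraction carried its defining markers on all 4 arrays. Kit, the c-Kit receptor, read 3.76 in JAK2V617F against 4.71 in WT, and 3.39 in the double mutant against 4.21 in Ezh2Δ/Δ. Ly6a, which encodes Sca-1, read 3.91 against 3.73 and 3.79 against 3.46 in the same order. Cd34 was bright on every LSK array, between 7.70 and 8.12. Of the 7 matched lineage markers that the sort removes, 4 or 5 were above background on each array, among them Itgam, which reads for CD11b on myeloid cells. Itgam differed by 1.14-fold and 1.27-fold in the pairs, higher with JAK2V617F in both. In a bulk sample, fewer cells of a type and less RNA per cell cannot be told apart, and this holds for every gene below.

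Jak2 itself was not higher in the mutant cells. It read 2.34 in JAK2V617F against 2.72 in WT, and 2.21 in the double mutant against 2.59 in Ezh2Δ/Δ, a log2 difference of -0.38 ± 0.25 (SE, 2 pairs) that did not pass the test (adjusted p = 0.437, limma). The probe cannot tell the V617F transcript from the normal one. The Ezh2 probe read 3.83 in JAK2V617F, 3.50 in WT, 3.59 in the double mutant and 3.36 in Ezh2Δ/Δ. It gave no sign of the floxed deletion on the Ezh2Δ/Δ arrays, and where the probe lies relative to the deleted part of the gene is not given in the sources used here, so it does not check the deletion.

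Over all genes, 518 of 12843 (4.03%) were at least 2-fold higher and 864 (6.73%) at least 2-fold lower in JAK2V617F than in WT LSK. In the Ezh2-deleted pair, 508 of 13143 (3.87%) were higher and 504 (3.83%) lower in the double mutant than in Ezh2Δ/Δ. The same direction in both pairs held for 185 genes that were higher (1.47% of the 12575 genes measured in both) and 221 that were lower (1.76%). With normexp background correction, which also started from median spot signals, these counts were 97 and 60. With quantile normalization they were 160 and 246, so the split between higher and lower genes changed with the processing. These counts are descriptions with no test.

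**Figure D1:**
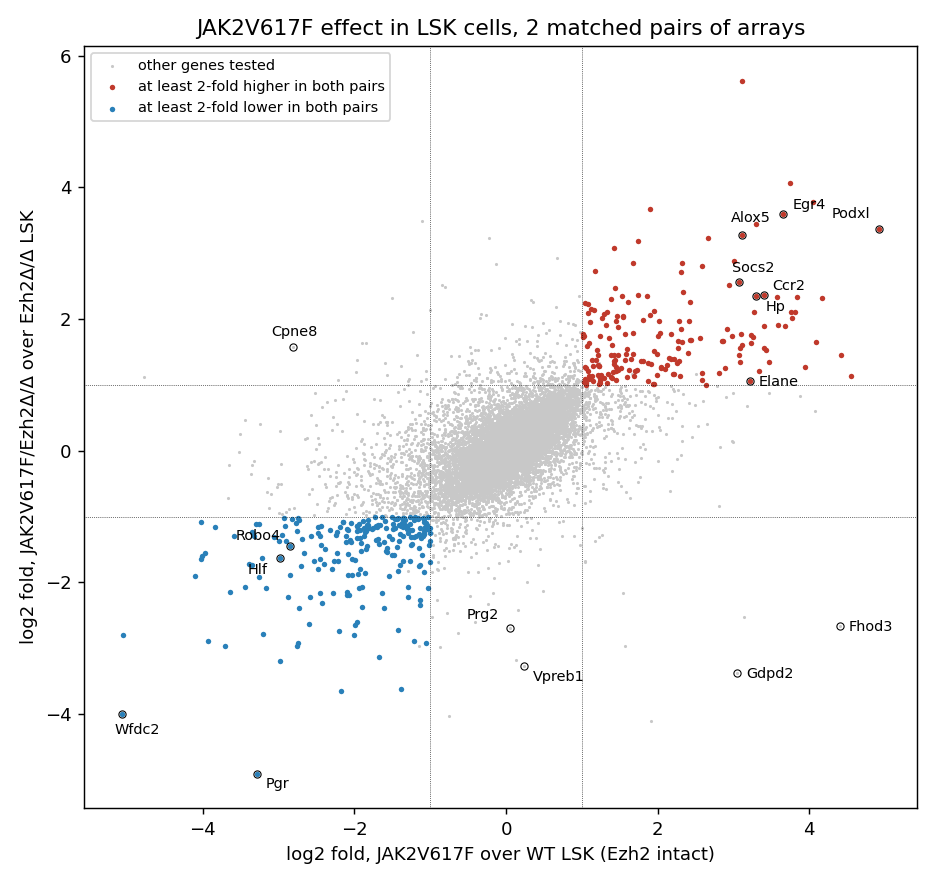
Log2 fold of each gene in the Ezh2-intact pair (x axis, JAK2V617F over WT) and the Ezh2-deleted pair (y axis, JAK2V617F/Ezh2Δ/Δ over Ezh2Δ/Δ); grey points are other genes tested, dotted lines mark 2-fold, and named genes are circled. Genes higher in both pairs fill the upper right, those lower in both fill the lower left, and Fhod3, Gdpd2 and Cpne8 lie in the corners where the pairs disagree.

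The test across genes treated the pairs as replicates of the JAK2V617F effect and took the spread from disagreement between pairs in LSK and MEP together (MEP are the megakaryocyte and erythroid progenitors of the same marrow). It called 68 of 12859 genes (0.529%) at an adjusted p under 0.05, 33 higher (0.257%) and 35 lower (0.272%) with JAK2V617F. By measured signals all 68 differed by 2-fold or more in both pairs, but 36 of them were below background on both arrays of the dimmer side, and the bounds of some of these are under 2-fold. The unadjusted p was under 0.05 for 2397 genes, 1373 higher and 1024 lower. The count rests on the pooled spread, since leaving out any 1 of the 4 MEP arrays, or fitting the LSK arrays alone, left 0 called genes.

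Egr4, a zinc-finger transcription factor of the early growth response family, and Alox5, the 5-lipoxygenase that starts leukotriene synthesis, were the clearest of the genes bright on all 4 arrays. Egr4 read 2.84 in JAK2V617F against -0.82 in WT, and 3.03 in the double mutant against -0.56 in Ezh2Δ/Δ, 12.6-fold and 12.1-fold higher (log2 difference 3.63 ± 0.21 SE, adjusted p = 0.00752, limma). Alox5 read 2.23 against -0.88 and 2.93 against -0.35, 8.62-fold and 9.69-fold higher (3.19 ± 0.21, adjusted p = 0.00848). For both genes the values of the JAK2V617F-carrying arrays lay above both others with a wide gap, and the pairs gave nearly the same fold. Both genes were named for their fold in both pairs, so this is a description and no separate support. Of the other 6 tested genes of the leukotriene and prostaglandin list, 0 passed the test. Lta4h, the enzyme that makes leukotriene B4, read 5.68 in JAK2V617F against 4.74 in WT and 5.03 in the double mutant against 4.32 in Ezh2Δ/Δ.

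Several genes were above background on both JAK2V617F-carrying arrays and on neither of the other 2. Csf2, which encodes the cytokine GM-CSF, was at least 2.79-fold and at least 3.06-fold higher (adjusted p = 0.0221, limma). Podxl, a sialomucin of stem and endothelial cells, was at least 7.41-fold and 9.64-fold higher (adjusted p = 0.0213). Cp, the copper-binding ferroxidase ceruloplasmin, was at least 8.70-fold and 2.77-fold higher (adjusted p = 0.00848). For the apolipoprotein L gene Apol10b the bounds were 5.36-fold and 3.57-fold, and those for the aldo-keto reductase gene Akr1c19 2.49-fold and 14.1-fold, with adjusted p of 0.00752 and 0.0461. Enah, an actin regulator, showed bounds of 2.77-fold and 16.4-fold but did not pass (adjusted p = 0.0853). Some others were above background in WT too. Plscr2 was 6.36-fold higher in the Ezh2-intact pair and at least 6.59-fold higher in the Ezh2-deleted pair (adjusted p = 0.0131). Averaging the probes of a gene gave 1.97 log2 for Cp and 2.45 for Apol10b, against 3.37 and 3.91 for the brighter probe alone. With normexp the values were 1.34 and 1.25, with 1.68 against 4.14 for Podxl. In the same setting Csf2 differed by 0.89 log2 against 2.94, Akr1c19 by 1.36 against 4.37 and Enah by 1.74 against 3.91. The Csf2 value was under 2-fold and so below both of its bounds, which refer to the measured signals without normexp. The calls of Akr1c19 and Csf2 were lost with quantile normalization, and those of Akr1c19 and Dlk1 when genes above background on a single LSK array were also tested (the looser filter). Dlk1, an imprinted gene for a surface protein of fetal tissues, read 1.19 in JAK2V617F against -1.75 in WT and 2.06 in the double mutant against -0.47 in Ezh2Δ/Δ (2.73 ± 0.35, adjusted p = 0.0467).

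**Figure D2:**
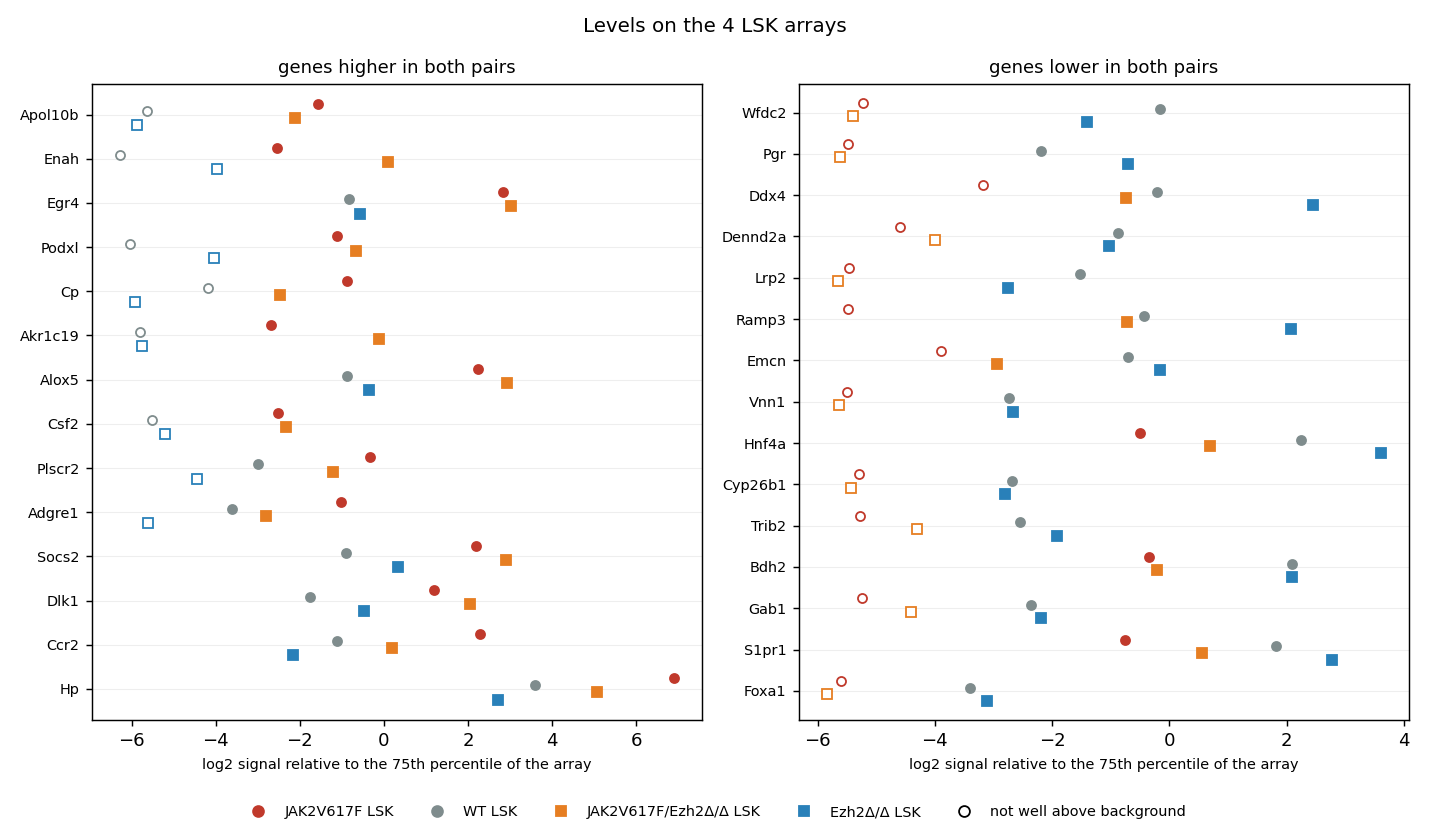
Levels on the 4 LSK arrays (x axis, log2 units as in the text) of the named genes with the highest smaller fold among those higher in both pairs (left) and of the 15 such genes among those lower in both pairs (right); 1 point is 1 array, and open points were not well above background. On the left the JAK2V617F and double mutant points lie right of their partners in every gene, and on the right they lie left of them; in 9 of the 15 lower genes both JAK2V617F-carrying arrays are open points.

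Neutrophil granule genes formed the group with the highest medians of all 30 lists. Secondary granule proteins and the calprotectin subunits are made late in neutrophil development, and the enzymes of the primary granules earlier, at the promyelocyte stage. Over all genes measured, 1.47% were at least 2-fold higher in both pairs and 1.76% lower, and 0.257% were called higher and 0.272% lower. These shares are the background for the lists that follow. Readings higher or lower by any amount were not counted over all genes, so such counts in the lists below have no background share. Of 12 tested secondary granule and calprotectin genes, all 12 read higher with JAK2V617F in both pairs and 10 were at least 2-fold higher in both, against a background of 1.47% of genes. Their median log2 difference was 3.44 in the Ezh2-intact pair and 1.73 in the Ezh2-deleted pair, with 0.09 and 0.08 over all genes tested. With dim values raised to the floor of the array the medians were 3.35 and 1.73. The test called 3 of the 12, all higher.

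Those 3 were Lcn2, Hp and Ifitm6, the last a gene for a membrane protein that the list holds beside granule genes. Lcn2, the iron-siderophore-binding lipocalin of secondary granules, read 3.19 in JAK2V617F against -0.39 in WT, and 1.30 in the double mutant against -1.03 in Ezh2Δ/Δ (2.96 ± 0.34, adjusted p = 0.0396, limma). Hp, haptoglobin, read 6.90 against 3.59 and 5.06 against 2.71 (2.83 ± 0.29, adjusted p = 0.0296). Ifitm6, a myeloid member of the interferon-induced transmembrane family, read 1.26 against -0.77 and 0.20 against -1.59 (1.91 ± 0.22, adjusted p = 0.0368). The 3 calls were lost with the looser filter, and that of Lcn2 also with quantile normalization. In each of these both JAK2V617F-carrying arrays lay above both others. That is no separate support, since the genes were picked by the call, and the share of all genes separated in this way was not counted.

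The other 9 members missed the threshold, with mean log2 differences between 0.44 and 3.24. Anxa1, annexin A1, was the lowest, at 0.60 and 0.28 log2 (adjusted p = 0.506, limma). Mmp8, neutrophil collagenase, was at least 5.24-fold higher in the Ezh2-intact pair and differed by 0.87 log2 in the Ezh2-deleted pair (adjusted p = 0.159). S100a8 and S100a9, the calprotectin subunits, differed by 3.41 and 3.58 log2 in the Ezh2-intact pair and by 1.56 and 1.91 in the Ezh2-deleted pair (adjusted p = 0.0770 and 0.0553, limma). Camp, the cathelicidin precursor, differed by 3.81 and 2.10 log2 (adjusted p = 0.0544). Ngp and Ltf, neutrophilic granule protein and lactoferrin, were at least 11.4-fold and 17.1-fold higher in JAK2V617F than in WT, where both were below background, and 5.01-fold and 3.13-fold higher in the double mutant than in Ezh2Δ/Δ (adjusted p = 0.0569 and 0.0968). For all 12 genes the fold was larger in the Ezh2-intact pair. The calprotectin genes read nearly alike in JAK2V617F (3.70 and 5.06) and the double mutant (3.92 and 5.29), and the 2 other arrays differed, at 2.36 and 3.38 in Ezh2Δ/Δ against 0.29 and 1.48 in WT.

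Of 10 primary granule genes, 4 were at least 2-fold higher in both pairs and 0 passed the test, with medians of 1.57 and 0.69. Ms4a3, which the list holds beside granule enzymes, encodes a tetraspan protein of granulocyte-monocyte progenitors. It read 7.28 in JAK2V617F against 3.50 in WT and 5.18 in the double mutant against 3.17 in Ezh2Δ/Δ (adjusted p = 0.0544, limma). Ctsg, the protease cathepsin G, read 9.96 against 7.70 and 8.62 against 7.29 (adjusted p = 0.0620). Elane, neutrophil elastase, read 7.05 against 3.83 and 4.70 against 3.64, so that the JAK2V617F array stood alone and the pairs differed much in size, 9.28-fold and 2.08-fold. Lyz2, the lysozyme gene of mature myeloid cells, read between 2.04 and 2.12 on all 4 arrays. Of 9 myeloid transcription factors, 4 were at least 2-fold higher in the Ezh2-intact pair, while in the Ezh2-deleted pair 6 read lower, 1 of them, Klf4, by over 2-fold (medians 0.60 and -0.03). Cebpe, the transcription factor that drives secondary granule genes, was the one at least 2-fold higher in both pairs (7.38-fold and 2.40-fold, adjusted p = 0.0863). Spi1, Gfi1 and Cebpb each differed by under 1.5-fold.

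Most monocyte and macrophage genes were higher too. Of 11 tested, 8 were at least 2-fold higher in both pairs and 2 were called higher, against 1.47% and 0.257% of all genes. The list medians were 1.71 and 1.27. Ccr2, the chemokine receptor of inflammatory monocytes, read 2.29 in JAK2V617F against -1.10 in WT, and 0.19 in the double mutant against -2.17 in Ezh2Δ/Δ (2.88 ± 0.30, adjusted p = 0.0294, limma). Adgre1, which encodes F4/80, was 6.03-fold higher in the Ezh2-intact pair and at least 2.18-fold higher in the Ezh2-deleted pair (adjusted p = 0.0131). The Ccr2 call was lost with the looser filter. A second Adgre1 probe gave a mean log2 difference of 1.00. Csf1r, the M-CSF receptor, read 5.92 against 4.21 and 4.73 against 3.51 (adjusted p = 0.0724), and F13a1, the coagulation factor XIII chain of monocytes, 5.73 against 3.58 and 3.95 against 2.54 (adjusted p = 0.0544). Not all macrophage genes followed: Mrc1, the mannose receptor, was above background on 0 arrays, and C1qb was within 0.16 log2 in both pairs. The complement genes C1qa and C1qc, too dim to be tested, were seen on the WT array alone, with bounds of 1.42-fold and 1.92-fold lower in JAK2V617F.

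Mast cell and basophil genes had medians of 1.91 and 0.69 over 9 tested, with 3 at least 2-fold higher in both pairs and 0 called. Fcer1a, the IgE receptor alpha chain, read 2.55 in JAK2V617F against 0.37 in WT and 2.89 in the double mutant against 1.12 in Ezh2Δ/Δ (adjusted p = 0.0544, limma). Mcpt8, a basophil protease, was 6.03-fold and 2.28-fold higher, and Il1rl1, the IL-33 receptor, 3.75-fold and 2.50-fold (adjusted p = 0.391 and 0.107). Prss34, a basophil protease, went the other way, at least 3.21-fold lower in the Ezh2-intact pair and at -2.27 in the double mutant against -1.77 in Ezh2Δ/Δ (adjusted p = 0.359). All 9 genes differed more in the Ezh2-intact pair, where Hdc, the histamine-forming enzyme, read 3.66 in JAK2V617F against 1.34 in WT but 1.81 in the double mutant against 1.44 in Ezh2Δ/Δ. As a list, the 12 secondary granule genes had a mean level of 2.30 in JAK2V617F, -0.86 in WT, 1.65 in the double mutant and -0.04 in Ezh2Δ/Δ, and the 11 monocyte genes 2.33, 0.55, 1.52 and 0.06 in the same order. The part of granulocytes, monocytes or their precursors among the sorted cells in these values was not tested.

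**Figure D3:**
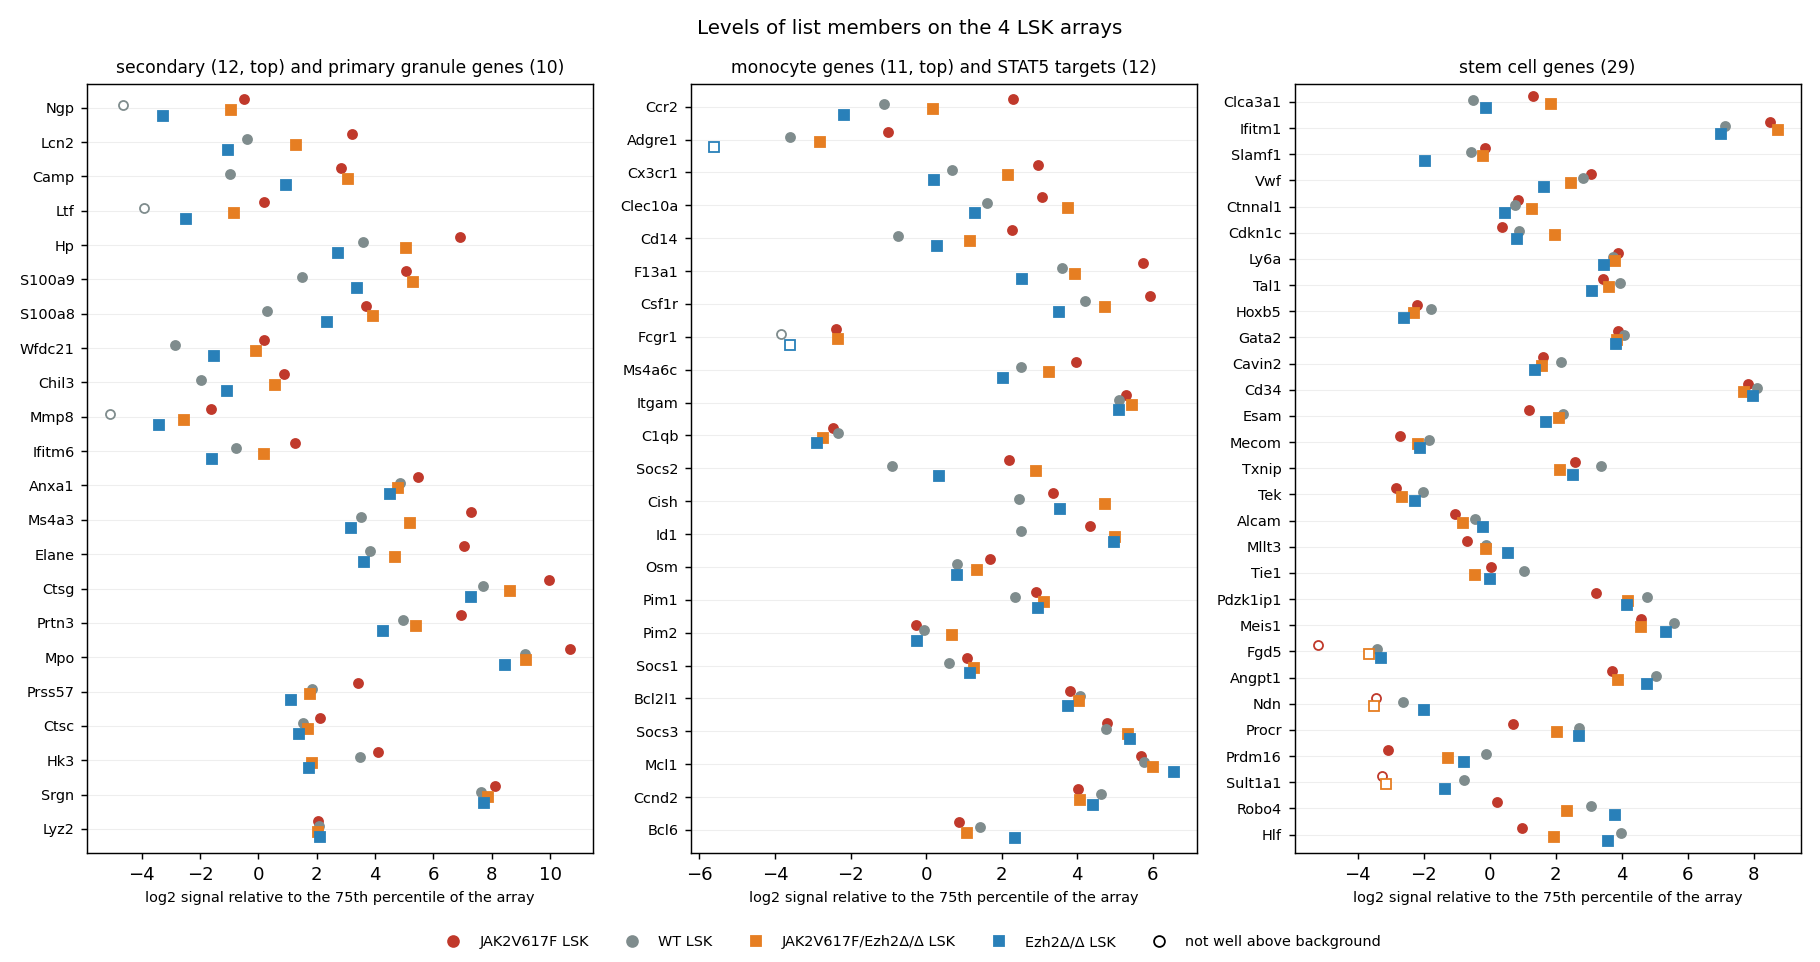
Levels on the 4 LSK arrays (x axis, log2 units as in the text) of the members tested of the secondary and primary granule lists, the monocyte list, the STAT5 target list and the stem cell list; open points were not well above background. Most granule and monocyte genes have the JAK2V617F and double mutant points to the right, most STAT5 targets lie close together apart from Socs2, Cish, Id1 and Bcl6, and Hlf, Robo4 and Sult1a1 at the bottom right have the mutant points to the left.

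STAT5 switches on Socs2, Cish and Pim1, of which the SOCS family members feed back to dampen the kinase. Of 12 tested STAT5 targets, 1 was called, Socs2. It read 2.18 in JAK2V617F against -0.89 in WT, and 2.90 in the double mutant against 0.34 in Ezh2Δ/Δ, 8.44-fold and 5.89-fold higher (2.82 ± 0.32, adjusted p = 0.0368, limma), and its other 2 probes gave log2 differences of 2.48 and 2.73. The call was lost with the looser filter. Cish read 3.35 against 2.45 and 4.74 against 3.54, 1.87-fold and 2.31-fold higher, and did not pass (adjusted p = 0.109). Pim1 read 2.90 against 2.36 and 3.13 against 2.97, and Socs3 differed by at most 0.03 log2 in either pair. Id1, a helix-loop-helix inhibitor, differed by 1.83 log2 in the Ezh2-intact pair and 0.02 in the Ezh2-deleted pair (adjusted p = 0.414). Bcl6, a repressor that STAT5 switches off, read 0.86 against 1.43 and 1.07 against 2.36 (adjusted p = 0.174). The list medians were 0.25 and 0.14, close to those of all genes.

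The kinases and STATs themselves read slightly lower. Of 15 JAK and STAT components, 13 were lower with JAK2V617F in both pairs, none by 2-fold. The share of all genes lower in both pairs by any amount was not counted. The list medians were -0.39 and -0.25, against 0.09 and 0.08 over all genes tested. They were also negative with quantile normalization (-0.44 and -0.38), normexp and the floor. Stat5a read 3.40 in JAK2V617F against 3.85 in WT and 3.27 in the double mutant against 3.44 in Ezh2Δ/Δ. Stat5b differed by 1.34-fold and 1.28-fold, lower in both pairs. No member passed the test.

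Among 19 cytokine receptors, 5 were at least 2-fold higher and 2 at least 2-fold lower in both pairs. Il18r1, a subunit of the receptor for interleukin 18, was the one called gene. It read 0.97 in JAK2V617F against -0.90 in WT, and 2.70 in the double mutant against 0.35 in Ezh2Δ/Δ (2.11 ± 0.24, adjusted p = 0.0396, limma), a call lost with quantile normalization, averaged probes and the looser filter. Csf2rb and Csf2rb2, the beta chains shared by the IL-3, IL-5 and GM-CSF receptors, were 2.08-fold and 2.34-fold higher in the Ezh2-intact pair and 2.04-fold and 2.20-fold higher in the Ezh2-deleted pair (adjusted p = 0.164 and 0.174). The 2 chains are near-identical, and their probes may share signal. Cxcr2, the neutrophil chemokine receptor, was 3.14-fold and 2.63-fold higher (adjusted p = 0.132). The erythropoietin receptor gene Epor read 1.22 against 0.81 and 1.62 against -0.04 (adjusted p = 0.202).

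STAT5 binds the palindrome TTCNNNGAA, and the sequences of Cish, Il18r1 and Csf2rb2 are given to show where these letters lie in genes that read higher with JAK2V617F. Sequences are from RefSeq on GRCm38.p6, written 5′ to 3′ on the gene's strand, with matches in capitals. The palindrome reads the same on both strands, and the matches shown do not overlap. Cish is shown for 30 bases at its start (chr9:107296656-107296685, plus strand), with matches beginning at bases 1 and 12 of the transcript. Il18r1 is shown for the 250 bases before its start (chr1:40465756-40466005, plus strand), with matches at -219 and -152. Csf2rb2 is shown for the same window (chr15:78305722-78305971, minus strand), with a match at -15.
Cish: gttTTCCTGGAAagTTCTTGGAAatctgtc
Il18r1: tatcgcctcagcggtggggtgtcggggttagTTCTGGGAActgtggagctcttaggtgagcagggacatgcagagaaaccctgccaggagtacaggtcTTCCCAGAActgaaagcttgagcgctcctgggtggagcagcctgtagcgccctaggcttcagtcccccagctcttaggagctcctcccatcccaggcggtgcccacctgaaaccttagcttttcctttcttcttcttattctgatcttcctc
Csf2rb2: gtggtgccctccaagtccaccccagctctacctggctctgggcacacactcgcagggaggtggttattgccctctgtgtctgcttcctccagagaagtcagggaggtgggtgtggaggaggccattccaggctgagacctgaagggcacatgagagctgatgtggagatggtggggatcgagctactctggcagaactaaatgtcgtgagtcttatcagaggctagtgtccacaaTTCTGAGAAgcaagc

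The palindrome was present in the 250 bases before the start of 7.02% of 32851 promoters. Among genes with a promoter in the table, it was found in 13 of 146 genes that were higher in both pairs (8.90%), in 14 of 169 that were lower (8.28%) and in 6 of the 50 called genes (12%), against 7.33% of the 10322 tested genes with a promoter. A match is not a binding site, and no reading is drawn from them.

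Genes that were lower with JAK2V617F included many of low signal. Wfdc2, a whey acidic protein family member, was not above background in JAK2V617F (-5.23) or the double mutant (-5.40), against -0.16 in WT and -1.41 in Ezh2Δ/Δ, at least 9.14-fold and 4.28-fold lower (adjusted p = 0.00848, limma). Pgr, the progesterone receptor, was at least 2.24-fold and 6.94-fold lower (adjusted p = 0.0215). Dennd2a was at least 5.57-fold and 5.55-fold lower and Lrp2, an endocytic receptor, at least 3.55-fold and 1.68-fold (adjusted p = 0.0131 and 0.0181). With normexp Wfdc2, Pgr and Dennd2a differed by -1.29, -1.20 and -1.30 log2, against -4.53, -4.10 and -3.34 without it. The bounds were small for the pantetheinase gene Vnn1 (1.54-fold and 1.78-fold) and for Cyp26b1, a retinoic acid-degrading enzyme (1.58-fold and 1.63-fold), although both were called (adjusted p = 0.0131 each). Foxa1, a forkhead transcription factor, was called (adjusted p = 0.0215), but its WT level of -3.39 lay below the lowest signal above background on the JAK2V617F array (-3.35), so no fold is given for that pair. The calls of Vnn1, Cyp26b1, Lrp2 and Foxa1 were lost with normexp (-0.54, -0.42, -0.58 and -0.16 log2) and with dim values raised to the floor (-0.73, -0.68, -1.29 and -0.18), and those of Cyp26b1 and Foxa1 also with a variance prior with a trend.

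Lower genes that were bright enough to give a fold included Bdh2, Hnf4a and S1pr1. Bdh2, an enzyme of siderophore synthesis, read -0.34 in JAK2V617F against 2.08 in WT, and -0.21 in the double mutant against 2.10 in Ezh2Δ/Δ (-2.37 ± 0.22, adjusted p = 0.0213, limma). Hnf4a, a nuclear receptor best known in liver, read -0.51 against 2.24 and 0.69 against 3.61 (adjusted p = 0.0949). S1pr1, the receptor that guides cells out of tissues along sphingosine 1-phosphate, read -0.76 against 1.83 and 0.56 against 2.78 (adjusted p = 0.0708). Emcn, the sialomucin endomucin found on stem cells and endothelium, was at least 6.29-fold lower in the Ezh2-intact pair and 6.85-fold lower in the Ezh2-deleted pair (adjusted p = 0.0131). Ddx4, a germ cell helicase, was at least 7.87-fold and 9.14-fold lower (adjusted p = 0.0131), while Ramp3 (at least 7.57-fold and 6.95-fold) and Trib2 (at least 1.74-fold and 3.00-fold) did not pass (adjusted p = 0.0598 and 0.0563). Gab1, a docking protein of receptor tyrosine kinases, was at least 1.99-fold and 2.50-fold lower (adjusted p = 0.0220), a call lost with normexp (-0.27 log2).

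Stem cell genes leaned lower, more so in the Ezh2-intact pair. Of 29 tested, 16 were lower in both pairs and 6 higher in both, by any amount, with no share over all genes counted. The medians were -0.78 and -0.29. In the Ezh2-intact pair 11 were at least 2-fold lower and 2 at least 2-fold higher, against 6.73% and 4.03% of all genes. In the Ezh2-deleted pair 4 were at least 2-fold lower and 4 at least 2-fold higher, against 3.83% and 3.87%. Hlf, a transcription factor of long-term stem cells, read 0.99 in JAK2V617F against 3.97 in WT, and 1.96 in the double mutant against 3.59 in Ezh2Δ/Δ (-2.30 ± 0.34, adjusted p = 0.0563, limma). Robo4, a guidance receptor of stem cells and endothelium, read 0.21 against 3.06 and 2.34 against 3.79 (adjusted p = 0.0661). Sult1a1 was the called gene on the lower side, at least 5.60-fold and 3.47-fold lower (adjusted p = 0.0461), and lost its call with normexp, averaged probes, the looser filter and the trend prior.

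Other stem cell genes had a larger fold in the Ezh2-intact pair, a difference that was not tested, or went the other way. Procr, the endothelial protein C receptor that marks long-term stem cells, read 0.71 in JAK2V617F against 2.71 in WT, but 2.05 in the double mutant against 2.71 in Ezh2Δ/Δ. Prdm16, a stem cell regulator, read -3.07 against -0.10 in the Ezh2-intact pair and -1.26 against -0.76 in the Ezh2-deleted pair. Clca3a1, a chloride channel accessory protein, read 1.31 against -0.50 and 1.87 against -0.11 and was called higher (1.90 ± 0.25, adjusted p = 0.0467, limma), but the call was lost with quantile normalization and the looser filter, and the probe may also read a close paralog. Ifitm1 read 8.49 against 7.14 and 8.73 against 7.01 (adjusted p = 0.0563). With normexp background correction the list median in the Ezh2-deleted pair was -0.00, against -0.42 in the Ezh2-intact pair.

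Lymphoid priming genes also leaned lower, with medians of -0.50 and -0.46 over 18 genes and none called. Flt3, the receptor that marks multipotent and lymphoid-primed progenitors, read 3.88 in JAK2V617F against 5.19 in WT, and 4.04 in the double mutant against 5.19 in Ezh2Δ/Δ (adjusted p = 0.154, limma). Blnk, an adaptor of the pre-B-cell receptor, read -0.87 against 1.24 and 1.83 against 3.97, 4.29-fold and 4.40-fold lower (adjusted p = 0.0809). These were the 2 members at least 2-fold lower in both pairs. Megakaryocyte and platelet genes had medians of 0.05 and 0.53, with 12 of 20 higher in both pairs and 6 lower in both. In the Ezh2-deleted pair 4 were at least 2-fold higher. Thbs1 and Mmrn1, for the matrix proteins thrombospondin 1 and multimerin 1, were among 3 at least 2-fold lower in both pairs and 0 of 20 at least 2-fold higher, while Pf4, platelet factor 4, read 6.02 against 5.09 and 5.87 against 5.14. Erythroid genes had medians of 0.08 and 0.63, and the sign of the first depended on the scaling (-0.09 with quantile normalization).

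Inflammatory genes were split. Of 24 tested interferon response genes, 4 were at least 2-fold lower in both pairs and 2 at least 2-fold higher. Ifit3 was called, at least 1.90-fold and 2.67-fold lower (adjusted p = 0.0303, limma), a call lost with normexp (-0.54 log2), the looser filter and the trend prior. Ifi44, Rsad2 and Irf7, which respond to type I interferon, were lower by 2.02-fold to 4.43-fold without passing. Cxcl10, a chemokine that responds to interferon gamma, read 4.37 in JAK2V617F against 1.12 in WT and 4.56 in the double mutant against 2.83 in Ezh2Δ/Δ (adjusted p = 0.0708). Among 20 TNF and NF-kB response genes, Il6, Il1b and Cxcl2 were at least 2-fold higher in both pairs and none at least 2-fold lower. Il1b read 0.88 against -2.21 and 0.41 against -0.94, and Cxcl2 2.33 against -0.77 and 2.43 against 0.66 (adjusted p = 0.107 and 0.104). In the TGF-beta list, Tgfbr2 and Smad7 were at least 2-fold lower in both pairs (adjusted p = 0.161 and 0.0687). Of 14 members, 9 were lower in both by any amount, with no share over all genes counted.

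Cell cycle genes differed little. The list median was 0.21 and 0.24, but 0.00 and 0.06 with quantile normalization, and 1 of 28 members, the cyclin gene Ccne1, was at least 2-fold higher in both pairs (1.02 and 1.04 log2). Mki67 differed by 0.15 and 0.02 log2. Cdkn2a, which encodes the p16 and p19Arf tumour suppressors and is a PRC2 target, read -0.17 in JAK2V617F and was not above background in WT (-4.59), at least 14.2-fold apart, against 0.02 in the double mutant and -1.43 in Ezh2Δ/Δ, 2.74-fold apart (adjusted p = 0.162, limma). Of 17 p53 targets, 1 was at least 2-fold higher and 2 at least 2-fold lower in both pairs. Pmaip1 (NOXA) was 11.1-fold and 2.53-fold higher without passing (adjusted p = 0.145), and Cdkn1a differed by -0.06 and -0.67 log2. Plk2, a stress-responsive kinase, differed by -1.13 and -2.34 log2, and Trp53inp1, a p53 cofactor, by -1.44 and -1.04 (adjusted p = 0.0861 and 0.127). No PRC2 subunit of 11 was 2-fold apart in either pair.

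**Figure D4:**
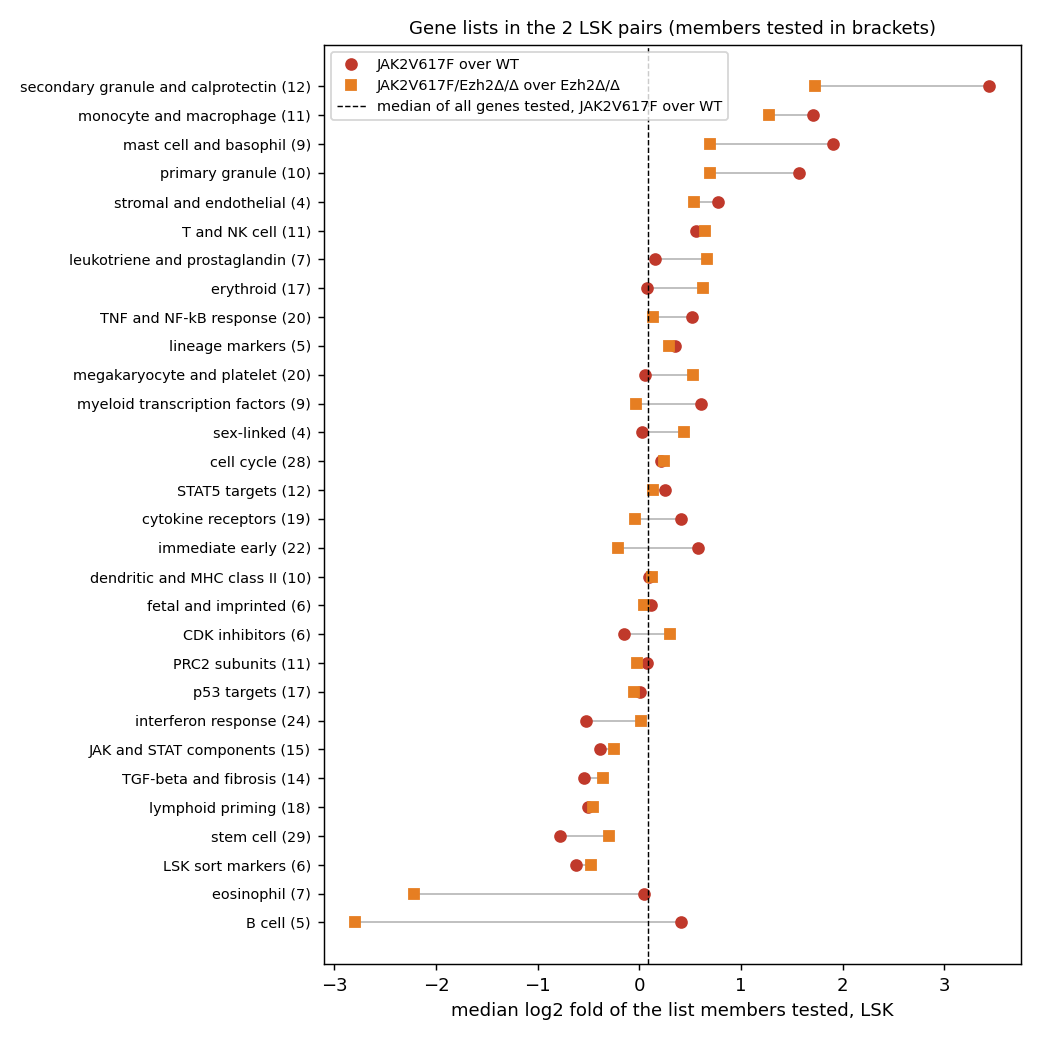
Median log2 fold of the tested members of each gene list in the Ezh2-intact pair (circles) and the Ezh2-deleted pair (squares), with the number of members tested in brackets and a dashed line at the median of all genes tested in the Ezh2-intact pair. The secondary granule list stands at 3.44 and 1.73, stem cell, lymphoid priming and JAK and STAT lists lie left of the line in both pairs, and the B cell and eosinophil lists lie far left in the Ezh2-deleted pair alone.

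Genes were taken as differing in a single pair where they were at least 2-fold apart there and within 0.5 log2 in the other. A signal above background was asked for only in the pair that differed. In the Ezh2-intact pair 123 were higher and 332 lower in JAK2V617F than in WT, and in the Ezh2-deleted pair 131 were higher and 102 lower in the double mutant than in Ezh2Δ/Δ. Of these, 88, 164, 71 and 39 genes, in that order, were above background on all 4 LSK arrays. In the same order, 18, 43, 25 and 36 genes had a signal above background on a single LSK array. The top ranks were mostly of this single-array kind. Urah, Spertl, Fndc8, Syn3, Sgms2 and Vmn1r104 were seen on the JAK2V617F array alone, at least 2.28-fold to 18.0-fold above WT, and Pawr was at least 1.77-fold higher there. Npnt, Olfr1461, Il1bos, St8sia2, Tspan7 and Cd200r4 were seen on the double mutant array alone, at least 1.80-fold to 10.6-fold above Ezh2Δ/Δ. Dnase1 was above background in the double mutant and WT, and at least 9.34-fold higher in the double mutant than in Ezh2Δ/Δ. Fgf3, a fibroblast growth factor gene, was above background on all 4 arrays and read -0.89 in JAK2V617F, -0.75 in WT, 0.66 in the double mutant and -2.18 in Ezh2Δ/Δ.

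On the lower side, Cacna2d1, Stpg3, Cdk3 and Gys2 were seen on the WT array alone and were at least 7.11-fold to 12.7-fold lower in JAK2V617F. Map3k9, Spaca1, Upk3bl and Phactr1 were seen on every LSK array but the JAK2V617F one, with bounds of 2.51-fold to 3.17-fold. A difference seen on 1 array has no repeat in these data. Among list genes on all 4 arrays, Atf3 and Klf2, stress and shear-responsive transcription factors, read 6.03 and 8.20 in JAK2V617F against 3.86 and 6.01 in WT, but 5.31 and 7.21 in the double mutant against 5.92 and 7.52 in Ezh2Δ/Δ. Of 22 immediate early genes, 18 read higher in the Ezh2-intact pair and 10 in the Ezh2-deleted pair, and Egr4 was the called one.

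Of the 8 genes named as lower in the Ezh2-deleted pair alone, most belong to the B or eosinophil lineages. They include Rag1, which cuts antigen receptor genes, and Pou2af1, a B-cell coactivator, both seen on the Ezh2Δ/Δ LSK array alone and at least 4.17-fold and 13.1-fold lower in the double mutant. Vpreb1 and Vpreb2, paralogs that encode surrogate light chains of the pre-B-cell receptor and may share signal, followed. Vpreb1 read 0.35 in JAK2V617F, 0.10 in WT, 1.45 in the double mutant and 4.72 in Ezh2Δ/Δ, so the Ezh2Δ/Δ array stood apart from the other 3. Of 11 matched B cell genes, 2 were above background in JAK2V617F, 2 in WT, 5 in the double mutant and 9 in Ezh2Δ/Δ LSK. Pax5 and Ms4a1, which mark committed and mature B cells, were below background on all 4. The part of B-lineage cells in these values was not tested.

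For eosinophil granule genes, too, Ezh2Δ/Δ was the high array. Prg2, the major basic protein gene, read 0.23 in JAK2V617F, 0.18 in WT, 0.60 in the double mutant and 3.29 in Ezh2Δ/Δ. Rnase2a and Ear10, eosinophil ribonuclease genes of a family of close copies, were 6.09-fold and at least 4.49-fold lower in the double mutant than in Ezh2Δ/Δ, and Cspg4 at least 2.39-fold lower. Ear2 read -3.11 in JAK2V617F against -1.81 in WT and -1.90 in the double mutant against 0.32 in Ezh2Δ/Δ, one of the 2 eosinophil genes at least 2-fold lower in both pairs (adjusted p = 0.0840, limma). In MEP the same gene read -2.36 in JAK2V617F and -1.49 in the double mutant and was below background in WT and Ezh2Δ/Δ.

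**Figure D5:**
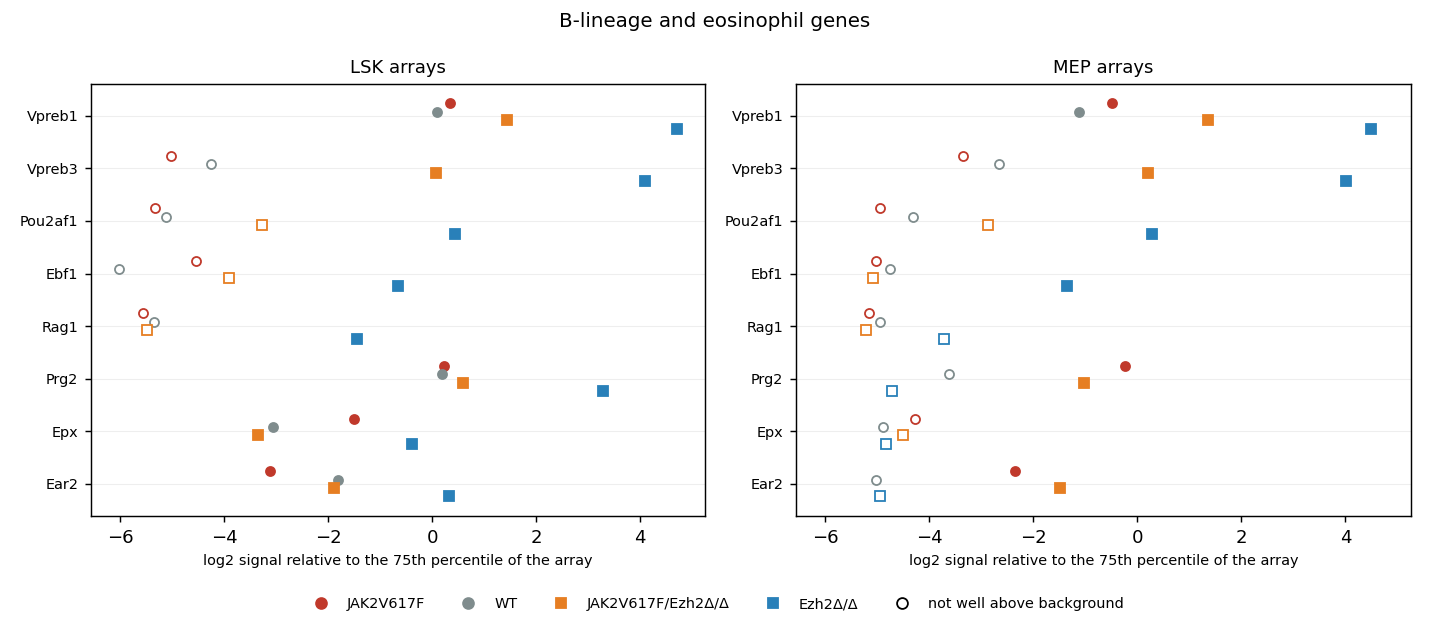
Levels of 5 B-lineage genes and 3 eosinophil genes (x axis, log2 units as in the text) on the 4 LSK arrays (left) and the 4 MEP arrays (right); open points were not well above background. The Ezh2Δ/Δ square is the rightmost point for all 8 genes in LSK and for the 5 B-lineage genes in MEP, while in MEP Prg2 and Ear2 are highest in JAK2V617F and the double mutant.

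Whether the JAK2V617F effect differed with Ezh2 status could be tested only as 1 term averaged over LSK and MEP, since the LSK arrays alone leave no spread. The spread of this term came from its disagreement between LSK and MEP, on 1 residual degree of freedom. That term called 17 of 12859 genes (0.132%), 8 with a higher JAK2V617F effect when Ezh2 was deleted and 9 with a lower one, at an adjusted p of 0.0177 for each of the 5 genes with the lowest p (717 genes had an unadjusted p under 0.05). Vpreb1 was among them, with an interaction term of -3.64 ± 0.36 log2 (SE). In MEP Vpreb1 read -0.50 in JAK2V617F, -1.13 in WT, 1.36 in the double mutant and 4.49 in Ezh2Δ/Δ. The double mutant and Ezh2Δ/Δ levels were near those in LSK, while JAK2V617F and WT read lower than in LSK. Bcat1, a branched-chain aminotransferase, had a term of -4.06 ± 0.38, but 2 other probes of this gene gave mean LSK differences of -0.13 and 0.01 log2, against 0.98 for the probe used. Ctxn2 and Cpne8 had terms of 3.96 ± 0.36 and 3.93 ± 0.39 and were above background on 1 MEP array each. With quantile normalization or the looser filter, 0 genes were called for this term. Because sex went with Ezh2 status in LSK, the term cannot tell the 2 apart.

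In the comparison with MEP, 133 of the 185 genes higher in both LSK pairs were measured in both MEP pairs, and 50 of these (37.6%) were at least 2-fold higher in both there, against 1.03% of the 11062 genes measured in both cell types. Of the 221 lower genes, 82 were measured in MEP and 15 (18.3%) were at least 2-fold lower in both, against 0.687% of all. Socs2 was 3.33 log2 higher in JAK2V617F than in WT MEP and 2.26 higher in double mutant than in Ezh2Δ/Δ MEP, and Egr4 3.18 and 3.10. Hp, S100a8 and Camp were higher by 2.41 to 3.15 log2 in both MEP pairs. Ccr2, Adgre1 and Cp, by contrast, were below background on all 4 MEP arrays. The test of the difference between the LSK and MEP effects called 0 of 12859 genes (0%) with limma. The lowest adjusted p was 0.0975, 1498 genes had an unadjusted p under 0.05, and a variance prior with a trend called 2.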

How the data were processed

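Per the file headers, the deposited intensity of each spot comes from Agilent Feature Extraction 10.7.1.1 after background subtraction and spatial detrending, with no scaling between arrays. Set against those values, the authors' deposited series table proved to be a ratio of processed signal to a factor near the 75th percentile per array. Here the mean processed signal per probe was divided by that percentile before log2 was taken. Probes were matched to 20883 genes through RefSeq accessions (GRCm38.p6), which named 27503 of 55681 probes, and a gene was read from its brightest probe over the LSK arrays. Genes whose probe was well above background on at least 2 of the 4 LSK arrays were tested (12859).

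limma 3.58.1 (R 4.3.3) fitted JAK2 and Ezh2 genotype nested in the cell type over 8 arrays with 2 residual degrees of freedom, and p was adjusted by Benjamini-Hochberg over all genes tested. In this nested fit the SE pools the spread of LSK and MEP pairs. With 1 array a group, its p-values measure disagreement between matched pairs, and the number of arrays limits the precision. The interaction was a separate fit with 1 more term, which leaves 1 residual degree of freedom. Its SE and p-values rest on the disagreement of that term between LSK and MEP. All arrays lie on 1 slide, where position and group cannot be told apart. Tested on simulated data of 12855 genes, the LSK fit made 8 false calls and recovered 3 of 50 genes changed by 1 log2, 34 of those changed by 2, and 49 each of those changed by 3 and by 4. The simulated spread was independent between arrays and drawn from the fit's own variance prior, alike for dim and bright genes. These counts therefore hold under the fit's own assumptions and do not give the false calls in the real data.

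The members, the 30 lists and the tests were chosen with earlier results of these data known. Named were Jak2 and Ezh2, the 15 genes each way whose smaller fold was highest, 8 each way in a single pair, up to 6 in opposite directions, up to 6 called each way, up to 5 for each difference, and in each list up to 4 with the largest mean fold and those past the threshold. Members of a list at least 2-fold apart in both pairs were named too, and predicted genes were counted, not named. A few genes were left out of the text and the plots and are not reported here. Other list members with small or single-pair differences (such as Lyz2, Spi1, Pim1, Itgam and Mki67) and the below-background markers were picked after their values were seen. Alternatives were normexp (on median spot and background signals), quantile scaling, the authors' table, stricter and looser filters, a floor under dim values, averaged probes, a trend prior, other thresholds and leaving out each array.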

Additional observations from a re-analysis of the deposited data

Results flagged for a closer look

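For 4 genes the JAK2V617F effect differed with Ezh2 status by the interaction term averaged over LSK and MEP (limma): 3.96 log2 for Ctxn2, 3.93 for Cpne8, -4.06 for Bcat1 and -3.64 for Vpreb1, each with 1 array behind every group. Sex went with Ezh2 status in LSK, so the term cannot be assigned to either. With quantile normalization or the looser filter, 0 genes were called for it.

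In LSK, 30 genes were at least 2-fold apart in opposite directions in the pairs, 10 higher and 20 lower in the Ezh2-intact pair. That difference was not tested for single genes in LSK. In the Ezh2-intact and Ezh2-deleted pairs, the measured log2 differences, background readings included, were 3.05 and -3.37 for Gdpd2, 4.41 and -2.65 for Fhod3, 3.14 and -2.53 for Aoc1, -1.89 and 1.64 for Dhh, -1.85 and 1.64 for Fam20a, and -2.81 and 1.57 for Cpne8. Gdpd2, Fhod3, Dhh and Fam20a were above background on 2 of the 4 arrays, so the dim side of each pair is a background reading. Aoc1 and Cpne8 were above background on 3, all but WT for Aoc1 and all but JAK2V617F for Cpne8. As bounds, Gdpd2 was at least 2.37-fold higher in JAK2V617F than in WT and at least 5.82-fold lower in the double mutant than in Ezh2Δ/Δ. Fhod3 was at least 4.85-fold higher in JAK2V617F than in WT. Dhh was at least 3.21-fold lower in JAK2V617F than in WT and at least 1.71-fold higher in the double mutant than in Ezh2Δ/Δ, and Fam20a at least 2.62-fold higher in the double mutant. In the Ezh2-intact pair Aoc1 was at least 6.00-fold higher and Cpne8 at least 1.91-fold lower.

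Among probes with no gene in the naming table, which no comparison used, 94 were at least 2-fold higher and 138 at least 2-fold lower in both LSK pairs.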

How the results depend on the processing

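Pairing by animal or replicate was not possible because each group has 1 array and the labels give all of them the same replicate number. The matched pairs that the test used are set by genotype. The 68 genes called within LSK became 280 with normexp, 34 with quantile normalization, 347 with dim values raised to the floor, 120 with genes above background on all 4 LSK arrays, 28 with at least 1, 182 with a trend prior, 284 at an adjusted p under 0.10 and 0 with the 4 LSK arrays alone. Of these, 41, 34, 50, 26, 23 and 45 were among the 68 for the first 6. Leaving out 1 array gave 0 to 408, and it was 0 without any MEP array: the remaining 1 residual degree of freedom then comes from LSK. Leaving out an LSK array leaves 1 pair, with the spread taken from MEP alone. The 406 genes at least 2-fold apart in both pairs became 157 with normexp, 254 above background on all 4 arrays (146 higher, 108 lower), 1623 at 1.5-fold and 118 at 3-fold, and of them 160 were higher and 246 lower with quantile normalization and 183 and 160 with the floor. The 17 interaction calls became 53 with normexp, 0 with quantile normalization, 11 with the series table, 66 with the floor, 6 with averaged probes, 0 with at least 1 array above background, 81 with a trend prior and 33 at an adjusted p under 0.10. The LSK minus MEP difference had 2 calls with a trend prior, 7 at an adjusted p under 0.10, and 0 to 188 when 1 array was left out. The cause of these changes was not tested. For the 90 named genes with a fit, the log2 difference kept its direction under every setting. Many were named for differing the same way in both pairs, and the filter, trend prior and LSK-alone settings leave the difference itself unchanged. The kept direction is therefore no separate support. Outside the array-omission and LSK-alone settings, 17 of the 31 called genes lost the call under at least 1 setting, in 33 of 228 cases.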
